A study of Homo sapiens with 2 samples.

Results

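The BCL2 family decides whether a cell keeps its mitochondrial outer membrane closed or opens it and dies by apoptosis. Prosurvival members hold the pore-forming effectors in check, and BH3-only members, which are switched on by damage, growth factor loss or loss of attachment, neutralise the prosurvival members or activate the effectors. Once effectors permeabilise the membrane, cytochrome c reaches the cytosol and caspases are activated. In colorectal cancer cells the balance between these classes sets how readily a cell dies, and several prosurvival members are drug targets. Here the mRNAs of 10 family genes were followed in RNA recovered with QKI (Quaking), an RNA-binding protein of the STAR family that acts on splicing, stability and translation of its targets. The genes were the prosurvival BCL2, BCL2L1, BCL2L2 and MCL1, the effector BAK1, and the BH3-only BID, BAD, BIK, BMF and BCL2L11. They were taken by symbol, as every probe set whose platform annotation names exactly 1 of them. That gave 50 of 49292 probe sets and 10 of 18132 genes, and all 10 gene identifiers matched RefSeq.

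The precipitates came from SW480, an established human colorectal cancer cell line. Cells of the siLnc sample were transfected with siRNA against the long non-coding RNA NONHSAT136151, and cells of the siNC sample with a negative control siRNA, at 100 pmol each, and both were collected at 48 h. An anti-QKI antibody was used for both, and RNA was read on PrimeView arrays, 1 array per condition. The comparison asks which mRNAs are recovered with QKI in different amount once NONHSAT136151 is silenced. With 1 array per condition no value has a replicate check, no p-value can be given, and precision is limited by there being 1 reading of each. NONHSAT136151 itself was not analysed here. The amount of an mRNA bound to QKI and its amount in the cells cannot be told apart, because IgG precipitates and input RNA were not analysed here.

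The siRNAs are printed because the labels of the 2 conditions differ in the siRNA. The study's supplementary table lists, 5′ to 3′, 1 sequence for the siRNA si-NON-1 against NONHSAT136151 and 1 for the control si-NC. Another siRNA against NONHSAT136151, si-NON-2, stands there with the same letters as si-NC, and the sources do not say with which siRNA the siLnc array was made.
si-NON-1: uaggcaugguuagcguggucggaautt
si-NC: ttcttacacaatagccagg

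All values are log2 signals as deposited, and a difference is siLnc minus siNC on the log2 scale, so that 1 is 2-fold. The median signal over all probe sets was 3.29 in siLnc and 3.32 in siNC. A background limit of 4.75 was set from 32 genes that mark unrelated cell types such as muscle, neurons and lymphocytes. It is the 95th percentile of their 76 probe sets on the array where it was higher. A difference is not exact where a signal lies below it. Of the 32 genes, TNNI3 itself lay above the limit, with 7.18 in siLnc and 7.51 in siNC, so the limit does not rest on silent genes alone. Keratin KRT19, a marker of the labelled epithelial line, had 11.15 in siLnc and 11.08 in siNC, and 5 of 10 colorectal epithelial markers lay above the limit on both arrays, while CDH1, VIL1, CEACAM5, LGALS4 and TSPAN8 did not. Gland and blood genes were listed with earlier results of these arrays known. Of the 26 measured, 12 were at least 2-fold higher in siLnc, where 0.651% of all genes were. Their gene signals were 1.29 to 10.09 in siLnc and 1.55 to 5.64 in siNC. Of the blood genes, HBB differed by 2.69 and ALAS2 by -0.44, the latter below the limit on both arrays. The part of the gland and blood genes in the differences of the BCL2 family was not tested.

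No gene of the BCL2 family differed 2-fold between the siLnc and siNC precipitates. A 2-fold higher signal in siLnc was seen in 0 of the 50 probe sets and a 2-fold lower one in 0, where over all probe sets 1.51% were 2-fold higher and 0.185% 2-fold lower. The widest differences were 0.83 for a probe set of MCL1 and -0.57 for one of BCL2L1. By gene, as the mean over probe sets, the differences lay between -0.32 for BCL2L1 and 0.32 for MCL1, with 4 genes above 0 and 6 below. Of all genes, 39.2% lay above 0 and 56.6% below. At a threshold of 1.5-fold, 0 of the 10 genes were higher and 0 lower in siLnc, where 4.26% of all genes were higher and 1.75% lower. The median of the 10 genes was -0.08 and that of all genes -0.06.

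**Figure D1:**
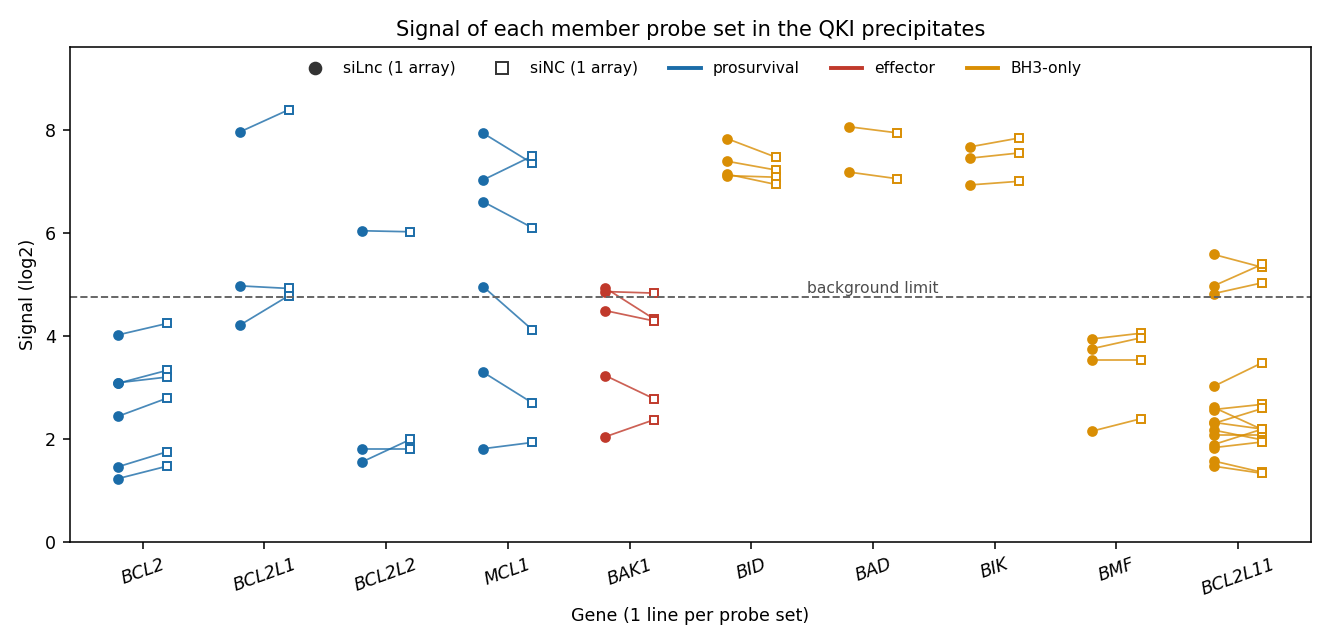
Log2 signal (vertical axis) of the 50 probe sets of the 10 genes, in siLnc (filled circles, left) and siNC (open squares, right), 1 array each, with a line joining the 2 signals of a probe set. Colours give the class of the protein and the dashed line is the background limit of 4.75. Probe sets of 1 gene span several log2 units, and the lines are short against that span. All probe sets of BCL2 and BMF lie under the limit.

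Of the 4 prosurvival genes, 3 had means below 0, and the other, MCL1, lay above it. MCL1, a short-lived prosurvival protein that restrains BAK1 and binds BH3-only proteins, had the highest mean of the 10 genes. Its brightest probe set had a signal of 7.93 in siLnc and 7.35 in siNC. Another bright probe set had 6.60 in siLnc and 6.10 in siNC. Both are listed under the MCL1 reference mRNA, and they differed by 0.58 and 0.50. The 2 MCL1 probe sets listed under an expressed sequence tag went the other way, with 7.03 in siLnc and 7.49 in siNC for the bright one, and 1.81 in siLnc and 1.93 in siNC for the dim one. The other 2 MCL1 probe sets had 4.95 in siLnc and 4.12 in siNC, and 3.29 in siLnc and 2.70 in siNC. Thus 4 probe sets of MCL1 were higher in siLnc and 2 lower, and among the 3 that were above the limit on both arrays, 2 were higher and 1 was lower. The SD over the 6 probe sets was 0.50, which exceeds the mean difference of 0.32.

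BCL2L1, which encodes BCL-XL and, by splicing, the shorter death-promoting BCL-XS, had the lowest mean of the 10 genes. Its bright probe set, listed under the reference mRNA of the short form, had 7.96 in siLnc and 8.39 in siNC. The suffix of its name marks probes that can cross-hybridise, and whether this probe set separates the forms was not analysed here. A second probe set had 4.21 in siLnc and 4.78 in siNC, and the third had 4.97 in siLnc and 4.92 in siNC. The first and second were lower in siLnc, by differences of -0.43 and -0.57, and the third, at 0.05, was level. The mean difference of -0.32 had an SD over the 3 probe sets of 0.33. Relative to the 500 probe sets nearest in signal to each, the median over the 3 was -0.56, while the robust SD among those neighbours was 0.36 to 0.47.

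BCL2, the founding member of the family, had each of its 6 probe sets lower in siLnc, by differences from -0.35 to -0.11 and a mean of -0.24. Its signals ran from 1.23 to 4.02 in siLnc and from 1.47 to 4.24 in siNC. All of them lay below the background limit, so by this limit the BCL2 mRNA is not read above background in either precipitate. Among the 500 probe sets nearest in signal to each BCL2 probe set, the median difference was between -0.16 and 0.00, and 1 of the 6 BCL2 probe sets was level with that median while the other 5 lay below it. BCL2L2, which encodes BCL-W, had 1 probe set above the limit, at 6.04 in siLnc and 6.02 in siNC, a difference of 0.02. Its other 2 probe sets were dim, at 1.80 on both arrays, and at 1.55 in siLnc and 1.99 in siNC. The mean of BCL2L2, -0.14, therefore comes from the dimmest probe set.

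BAK1, the pore-forming effector held in check by MCL1 and BCL-XL, had a mean difference of 0.19 over 5 probe sets, with an SD of 0.37. Its 2 brightest probe sets gave unequal differences. The first had 4.86 in siLnc and 4.83 in siNC, and the second 4.93 in siLnc and 4.33 in siNC. The other 3 had 4.49, 3.23 and 2.04 in siLnc, against 4.29, 2.78 and 2.37 in siNC. Of the 5 probe sets, 4 were higher in siLnc and 1 was lower, while the 1 above the limit on both arrays differed by 0.03.

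**Figure D2:**
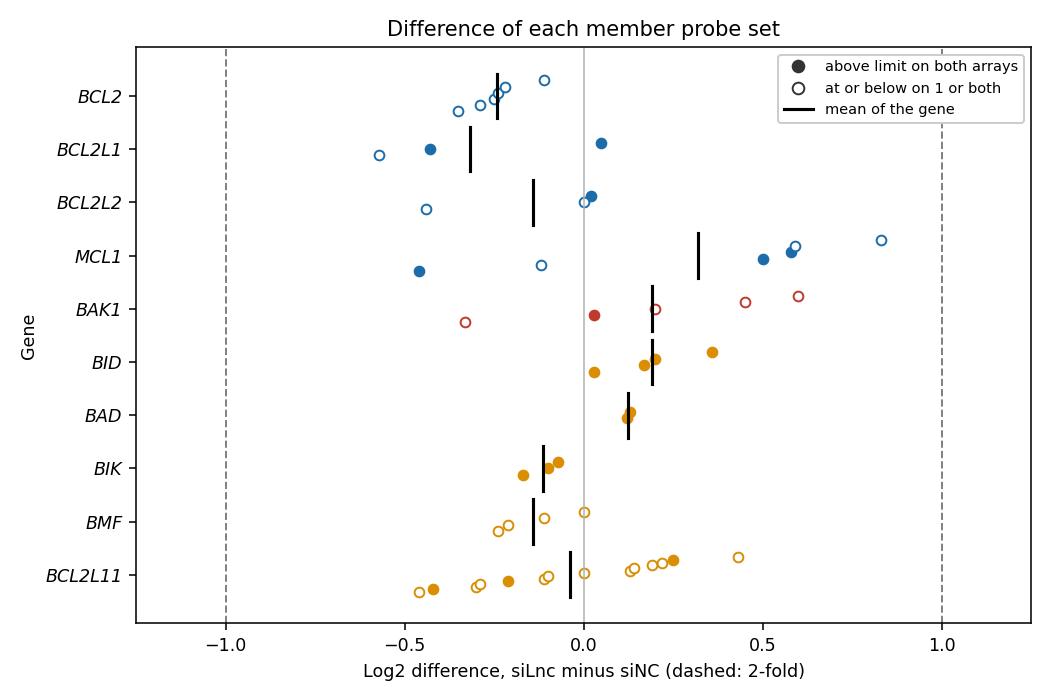
Log2 difference (siLnc minus siNC, horizontal axis) of each of the 50 probe sets by gene, with the mean of the gene as a black bar and 2-fold as dashed lines. Filled points lie above the background limit on both arrays and open points do not. Points of BCL2 and BIK lie on the left of 0 and those of BID and BAD on the right, while MCL1, BAK1 and BCL2L11 have points on both sides.

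Of the BH3-only genes, BID, BAD and BIK were read well above background in both precipitates, and their differences were small. BID, which is cleaved by caspase-8 and carries the death receptor signal to mitochondria, had 7.83, 7.39, 7.11 and 7.14 in siLnc, against 7.47, 7.22, 7.08 and 6.94 in siNC. All 4 probe sets were higher in siLnc, by 0.03 to 0.36, with a mean of 0.19. BAD, which is kept in the cytosol by 14-3-3 proteins when survival kinases phosphorylate it, had 8.06 and 7.18 in siLnc, against 7.94 and 7.05 in siNC. Its 2 probe sets were thus higher in siLnc, by 0.12 and 0.13. BIK, a BH3-only protein of the endoplasmic reticulum, had 7.67, 7.45 and 6.93 in siLnc, against 7.84, 7.55 and 7.00 in siNC. All 3 of its probe sets were lower in siLnc, by differences of -0.17, -0.10 and -0.07.

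These 3 genes are read best against the other probe sets of like signal. Among the 500 probe sets nearest in signal to each probe set of BID, BAD and BIK, the median difference was between 0.13 and 0.19. Relative to these neighbours the median over its probe sets was 0.02 for BID, -0.02 for BAD and -0.23 for BIK. The robust SD of the difference among the neighbours was 0.35 to 0.40, larger than each of these values. All 3 probe sets of BIK lay below their neighbours' median, as did both of BAD, while BID had 2 above it and 2 below. After cyclic loess between the arrays, which removes such a trend with signal, BID had a difference of 0.04, BAD of -0.02 and BIK of -0.26.

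BMF, which is released from the cytoskeleton when cells lose attachment, and BCL2L11, which encodes BIM, a strong activator of cell death after growth factor loss, were dim. BMF had 3.94, 3.75, 3.54 and 2.15 in siLnc, against 4.05, 3.96, 3.54 and 2.39 in siNC. The mean was -0.14, with 3 probe sets lower and 1 equal, and all 4 lay below the limit. BCL2L11 was read by 14 probe sets, of which 6 were higher in siLnc, 7 lower and 1 equal, with a mean of -0.04 and a range from -0.46 to 0.43. Its 3 probe sets above the limit had 5.58, 4.97 and 4.82 in siLnc, against 5.33, 5.39 and 5.03 in siNC. The brightest of them was higher in siLnc by 0.25, and the other 2 lower, by differences of -0.42 and -0.21. For BCL2L11 the probe sets therefore give no common direction. The median over the 5 BH3-only genes was -0.04, and that over the 4 prosurvival genes was -0.19. The prosurvival value rests partly on signals below the limit. Of the 6 prosurvival probe sets above the limit on both arrays, 4 were above 0 and 2 below. Of the 12 such BH3-only probe sets, 7 were above 0 and 5 below, where 61.9% of all probe sets that bright were above 0.

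**Figure D3:**
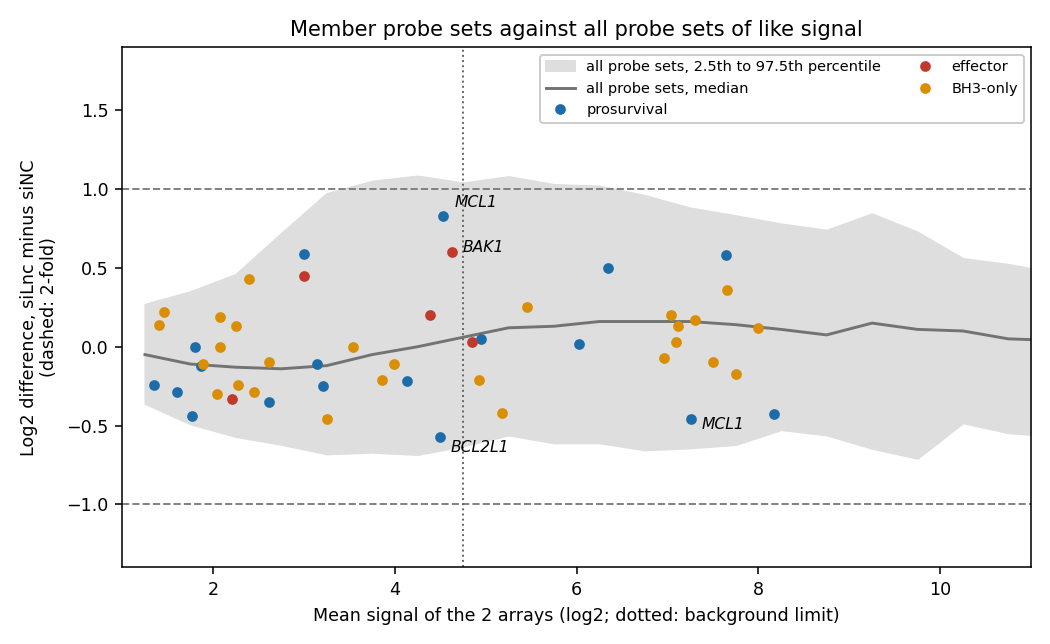
Log2 difference (siLnc minus siNC, vertical axis) against the mean log2 signal of the 2 arrays (horizontal axis) for the 50 probe sets, coloured by class. The grey band holds the central 95% of all probe sets in bins of 0.5 log2 units, the grey line is their median, dashed lines are 2-fold and the dotted line is the background limit. All 50 probe sets lie inside the band.

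Each probe set was also set against the spread of probe sets of like signal. Here differences were counted from 0, not from the neighbours' median. The largest in units of the robust SD among the 500 nearest probe sets was 2.23, for 1 BCL2L11 probe set. It had 2.61 in siLnc and 2.18 in siNC, both below the limit. Relative to its neighbours' median it lay at 0.56, where their robust SD was 0.19. Over the 50 probe sets 0 reached 3 robust SDs, where of all probe sets 0.878% were that much higher in siLnc and 0.487% that much lower. At a threshold of 1.5-fold, 3 of the 50 were higher in siLnc, 2 of MCL1 and 1 of BAK1, and 0 were lower, where of all probe sets 7.23% were higher and 2.58% lower. In sign, 22 of the 50 were above 0, which is 44.0%, against 41.1% of all probe sets, and 25 were below 0, where 49.9% of all probe sets were. Of the 50, 22 share the annotated target sequence with another probe set of the same gene and 12 carry the suffix for cross-hybridising probes, so the probe sets of a gene are not independent readings.

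The rest of the family and the steps around it were described by 7 lists of genes. Beside their sign counts, 39.2% of all genes lay above 0 and 56.6% below. Of the probe sets above the limit on both arrays, 61.9% lay above 0, with a median difference of 0.12. Of 8 other BCL2 family proteins, 3 had means above 0 and 5 below, with a median of -0.14, and 0 were 2-fold apart. Without dim probe sets, those under the median of their array on both arrays, the median turned to 0.10. BAX, the effector that acts beside BAK1 and was named after its value was seen, had 5.74 in siLnc and 5.64 in siNC. BCL2L14, which encodes BCL-G, had 1.95 in siLnc and 2.56 in siNC, both below the limit, with its 3 probe sets at -1.05 to -0.30. BCL2L12 had 9.65 in siLnc and 9.14 in siNC. Of 7 other BH3-only and BNIP genes, 3 were above 0 and 4 below, with a median of -0.23 that was -0.14 after cyclic loess and turned to 0.02 without dim probe sets. BNIP3L, a mitophagy receptor, had 7.00 in siLnc and 7.46 in siNC and lay below 0 in all 6 probe sets. HRK had a difference of -0.35 at background signal, and BNIP1 one of 0.35.

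Of 22 genes whose proteins bind or modify the members, 15 were above 0 and 6 below, with a median of 0.18. After cyclic loess between the arrays this median was 0.07. It was 0.03 without probe sets whose suffix, _s_at or _x_at, marks probes that may match other genes. By mean, 15 of the 22 lay above the limit on both arrays, and of all probe sets that bright 61.9% were above 0. FBXW7, the subunit of a ubiquitin ligase that marks MCL1 for degradation, had a mean of 4.92 in siLnc and 4.04 in siNC. Its 3 probe sets differed by 0.67 to 0.98, and the mean in siNC lay below the limit. PIM2, a survival kinase that phosphorylates BAD, had 4.69 in siLnc and 3.99 in siNC, below the limit on both arrays. Neither reached 2-fold.

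For 13 genes of the apoptosome, the caspases and the released mitochondrial factors the median was 0.07, with 8 above 0 and 5 below. That median was -0.02 after quantile normalization. AIFM1, a mitochondrial flavoprotein that can move to the nucleus during cell death, had 7.08 in siLnc and 6.36 in siNC in its 1 probe set. ENDOG, a mitochondrial nuclease, had 6.34 in siLnc and 5.97 in siNC. The 6 inhibitors of apoptosis had a median of 0.06, with 3 above 0 and 3 below. Their median was 0.20 without dim probe sets and 0.21 without _s_at and _x_at probe sets. BIRC5, which encodes survivin, a protein of both cell division and caspase restraint, had a mean of 5.37 in siLnc and 4.91 in siNC. Its 12 probe sets differed by 0.00 to 0.85. Those above the limit on both arrays differed by 0.36 to 0.82, and those at 0.00 had background signals of 1.31 and 1.70. XIAP, a direct caspase inhibitor, had a difference of -0.23, with probe sets from -0.70 to 0.58. Those above the limit on both arrays differed by -0.63, -0.70 and -0.59. The probe sets of XIAP at 0.58 and 0.18 lay below the limit on both arrays.

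Among 12 genes of death receptors, their ligands and adaptors, 5 were above 0 and 7 below, with a median of -0.05. Without _s_at and _x_at probe sets the median was 0.01. TNFRSF10A, a receptor for TRAIL, was the 1 gene of the 7 lists that reached 2-fold, where 0.651% of all genes were 2-fold higher in siLnc. Its single probe set had 4.70 in siLnc and 3.62 in siNC, both below the limit, so the size of the difference of 1.08 is not exact. FAS had 6.12 in siLnc and 5.67 in siNC. Of 8 transcription factors that act on family genes, 7 were above 0 and 1 below, with a median of 0.24 that was 0.13 with the median probe set of each gene. By mean, 4 of the 8 lay above the limit on both arrays, and of all probe sets that bright 61.9% were above 0. STAT3, which activates MCL1 and BCL2L1, had 5.86 in siLnc and 5.29 in siNC, and NFKB1 had 6.91 in siLnc and 6.38 in siNC. The 1 gene below 0 was DDIT3, named after its value was seen, which encodes the stress factor CHOP and had 4.15 in siLnc and 4.65 in siNC, both below the limit, with its 2 probe sets at -0.59 and -0.41. None of the 3 reached 2-fold.

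**Figure D4:**
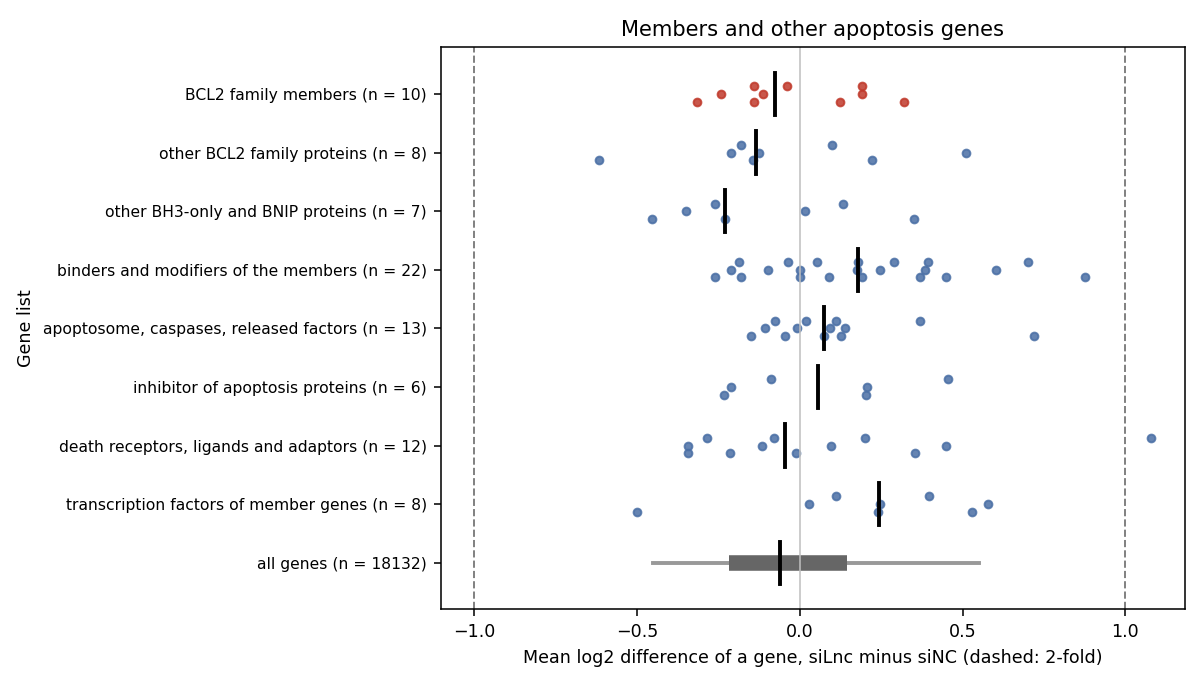
Mean log2 difference of each gene (siLnc minus siNC, horizontal axis) in the 10 BCL2 family members (red) and 7 other apoptosis lists (blue), with the median of each list as a black bar and 2-fold as dashed lines. The lowest row gives all 18132 genes, with the middle 50% as a thick line and the 5th to 95th percentile as a thin line. The members lie between -0.32 and 0.32 and TNFRSF10A at 1.08 is the 1 point past 2-fold.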

How the data were processed

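RNA recovered with QKI from SW480 cells was measured on PrimeView arrays, 1 of siLnc and 1 of siNC cells. For each array the authors deposited processed log2 signals by probe set. The base was taken from the values, whose maximum of 13.28 exceeds 11.09, the largest natural log of a 16-bit scan. The submitters' processing notes name GCOS, and how background was corrected and arrays were summarised and normalised is not stated there or in the methods. Of 49371 probe sets, 79 controls were left out. Genes were named from the platform annotation and valued as the mean over probe sets with 1 symbol. The members and lists were chosen with earlier results of these data known. All members were named, and of each other list up to 3 genes at 2-fold or, with fewer than 2 of these, the 2 with the largest differences (3 where tied). Listed genes without a probe set of their own, such as BIRC3, were not analysed here. No test was possible with 1 array per condition. Cyclic loess and quantile normalization used limma 3.58.1 in R 4.3.3, and other steps Python 3.11.15 with numpy 2.4.6 and pandas 2.3.3.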

Additional observations from a re-analysis of the deposited data

How the results depend on the processing

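The counts of 0 probe sets 2-fold higher and 0 lower in siLnc held under cyclic loess, quantile normalization, median centring and a threshold of 3 local robust SDs. Leaving out dim probe sets, or _s_at and _x_at probe sets, or using a 3-fold threshold, could only give 0 again. A 1.5-fold threshold gave 3 higher. The mean of a gene passed 2-fold in 0 of 10 genes under any alternative. The sign held in all 7 alternatives for 7 genes, and turned for BCL2L2 (up to 0.02), BAD (down to -0.02 after cyclic loess) and BCL2L11 (0.25 in its brightest probe set). MCL1 ranged from 0.26 to 0.58 and BCL2L1 from -0.43 to -0.26. With the brightest probe set of each gene the median was 0.12 for the BH3-only genes and -0.10 for the prosurvival genes. Without dim probe sets it was -0.11 for each of these classes. The median of all 10 genes ranged from -0.10 to 0.03. No paired analysis was possible because there was 1 array per condition, and no replicate could be left out. Signals below the background limit, which hold 28 of the 50 probe sets on both arrays, limit BCL2, BMF and most BCL2L11 probe sets.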
